A study of Arabidopsis thaliana with 10 samples.

Results

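The thalianol cluster is a group of neighbouring genes on chromosome 5 of *Arabidopsis thaliana* that makes a root triterpene, and its loops were taken from 5 lists of chromatin contacts. Loops were chosen by position in a 75-kb window that was set with earlier results of these data known. Anchors are the DNA stretches that a loop joins. A loop belonged when at least 1 of its anchors overlapped the window, from 19400000 to 19475000 of chromosome 5 (TAIR10). This gave 83 of 59271 nuclear loops (0.14%) with 1223 paired-end tags (PETs), each PET being a sequenced pair of DNA ends that joins both anchors. The cluster genes were AT5G47950 (THAA2), AT5G47980 (THAA1), AT5G47990 (THAD), AT5G48000 (THAH) and AT5G48010 (THAS1), 5 of 27444 protein-coding genes in the annotation. The assay was ChIA-PET, in which cross-linked chromatin is pulled down with an antibody and DNA ends that lie together are ligated. The material was shoots of Col-0 seedlings aged 2 weeks in all samples, with no mutant or treatment among them. The 10 samples fell into 5 antibody groups with 2 labelled replicates each: H3K27me3, RNAPII, H3K4me1, H3K4me3 and H3K9me2. Whole shoots mix many cell types, so the fraction of cells that held a contact and the strength of that contact per cell cannot be told apart. The files held a single pooled list per antibody, so replicate error is unknown, antibodies were compared without a test, and all intervals cover counting error only.

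In plants, genes that act in the same specialised pathway can lie side by side. THAS1 is an oxidosqualene cyclase that folds oxidosqualene into thalianol. THAH and THAD are cytochrome P450 enzymes that hydroxylate and desaturate the product, and THAA1 and THAA2 are acyltransferases of the same pathway. The pathway is known to be active in roots, and H3K27me3, the histone mark of Polycomb repression, is known to cover the genes where they are silent. H3K4me3 and RNA polymerase II (RNAPII) mark starts and bodies of transcribed genes, H3K4me1 marks bodies of transcribed genes, and H3K9me2 marks heterochromatin. No root sample was analysed here.

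The sequences just upstream of the 5 cluster genes are shown because 4 of these stretches lay wholly inside an H3K27me3 anchor and the fifth, that of THAA2, in no anchor. Each holds the 250 bases before the transcription start (TAIR10.1 genome of RefSeq, gene strand, 5′ to 3′), with matches to the TATA box letters TATAAA on either strand in capitals.

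THAA2 (chr5:19418658-19418907, minus strand): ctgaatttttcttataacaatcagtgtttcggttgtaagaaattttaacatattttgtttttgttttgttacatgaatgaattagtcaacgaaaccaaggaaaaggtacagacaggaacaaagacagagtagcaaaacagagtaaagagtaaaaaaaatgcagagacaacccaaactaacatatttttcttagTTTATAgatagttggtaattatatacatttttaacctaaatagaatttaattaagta
THAA1 (chr5:19428638-19428887, plus strand): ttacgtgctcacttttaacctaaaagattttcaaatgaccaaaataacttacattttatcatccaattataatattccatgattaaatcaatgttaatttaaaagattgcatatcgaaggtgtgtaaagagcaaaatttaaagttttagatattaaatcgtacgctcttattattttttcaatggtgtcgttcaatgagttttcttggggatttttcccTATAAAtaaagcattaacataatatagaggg
THAD (chr5:19434508-19434757, plus strand): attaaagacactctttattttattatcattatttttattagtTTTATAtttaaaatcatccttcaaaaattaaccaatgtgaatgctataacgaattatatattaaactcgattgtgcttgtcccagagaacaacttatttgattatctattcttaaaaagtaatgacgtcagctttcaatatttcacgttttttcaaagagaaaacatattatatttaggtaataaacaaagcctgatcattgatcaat
THAH (chr5:19447867-19448116, minus strand): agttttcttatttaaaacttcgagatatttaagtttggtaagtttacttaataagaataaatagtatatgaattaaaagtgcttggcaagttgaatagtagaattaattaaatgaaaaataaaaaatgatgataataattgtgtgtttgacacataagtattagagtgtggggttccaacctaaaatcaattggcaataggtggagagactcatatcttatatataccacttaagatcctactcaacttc
THAS1 (chr5:19456587-19456836, plus strand): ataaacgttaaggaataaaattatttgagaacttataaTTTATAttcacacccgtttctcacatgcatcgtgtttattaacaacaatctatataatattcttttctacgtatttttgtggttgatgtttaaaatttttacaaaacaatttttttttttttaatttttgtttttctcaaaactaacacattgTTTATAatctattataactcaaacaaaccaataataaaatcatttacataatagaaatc

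All 5 were rich in A and T, with a GC content from 20.8% for THAS1 to 27.2% for THAH. The only match to the TATA letters on the gene strand lay in THAA1, starting 31 bases before the transcription start. THAH had no match, and the matches of THAA2, THAD and THAS1 lay on the opposite strand. Such a match is common, since 47.3% of 27443 upstream stretches of 250 bases held TATAAA on 1 strand or the other. A pair of sequences that recruit Polycomb proteins in plants was also searched on both strands: the telobox AAACCCTA and the repeat GAGAGAGA. Neither had a match in any of the 5 stretches, against 4.49% of all upstream stretches for the telobox and 4.91% for the repeat. Across whole anchors, the telobox occurred 1 time in the THAH anchor and 1 time in the anchor that holds XTH20, and in none of the THAA1, THAD, THAS1, TT10 and AT5G48110 anchors. Over all H3K27me3 anchors it occurred 1.97 times per 10 kb. Of the 10 sites found for both motifs, 4 are shown, both teloboxes and the repeats at THAA1 and THAS1, with 11 bases on each side and the motif in capitals.

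Telobox upstream of THAH (chr5:19449167-19449196, plus strand): tttatttttaaAAACCCTAtttcaccaaat
Telobox in the XTH20 anchor (chr5:19476756-19476785, plus strand): tgttggaatgcAAACCCTAaagacaagtat
GAGA repeat in the THAA1 anchor (chr5:19432044-19432073, plus strand): agtttctgaaaTCTCTCTCtaagcatatag
GAGA repeat in THAS1 (chr5:19461045-19461074, plus strand): gtgatcagatgGAGAGAGAtcctttaccgg

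The THAH telobox lay 1312 bp upstream of the THAH transcription start, outside any gene, and that in the XTH20 anchor lay in coding sequence of AT5G48060. The THAA1 anchor's repeat lay in an exon of the noncoding gene AT5G07035, and the THAS1 repeat lay in coding sequence. The repeat also matched at 2 overlapping positions downstream of THAH and at 4 positions in the XTH20 anchor, and had no match in the THAD, TT10 and AT5G48110 anchors. Per 10 kb it occurred 3.7 times in the XTH20 anchor, 1.9 times in the THAH anchor, 1.7 times in the THAA1 anchor and 1.39 times in the THAS1 anchor, against 3.34 times over all H3K27me3 anchors.

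The cluster genes met only H3K27me3 anchors. THAA1, THAD and THAH were covered over 100% of their length and THAS1 over 97.6%, so 4 of 5 cluster genes lay at an H3K27me3 anchor, against 14.8% of all protein-coding genes. None of the 5 met an anchor of RNAPII, H3K4me1, H3K4me3 or H3K9me2, where the share of all protein-coding genes was 24%, 28.4%, 39.4% and 0.998%, in that order. The exception among the members was THAA2. It lay in a 15.5-kb stretch, from 19412053 to 19427533, that held no anchor of any of the 5 lists. RABA4C, which encodes a RAB GTPase of membrane traffic, and AT5G47970, annotated as an aldolase-type protein, lay in the same stretch. Both separate THAA2 from THAA1. On its left the stretch ended at the H3K4me3 anchor of AT5G47940, and on its right at the H3K27me3 anchor of THAA1. Anchors are in these lists only where at least 1 loop was called, so a missing anchor is not a missing mark.

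**Figure D1:**
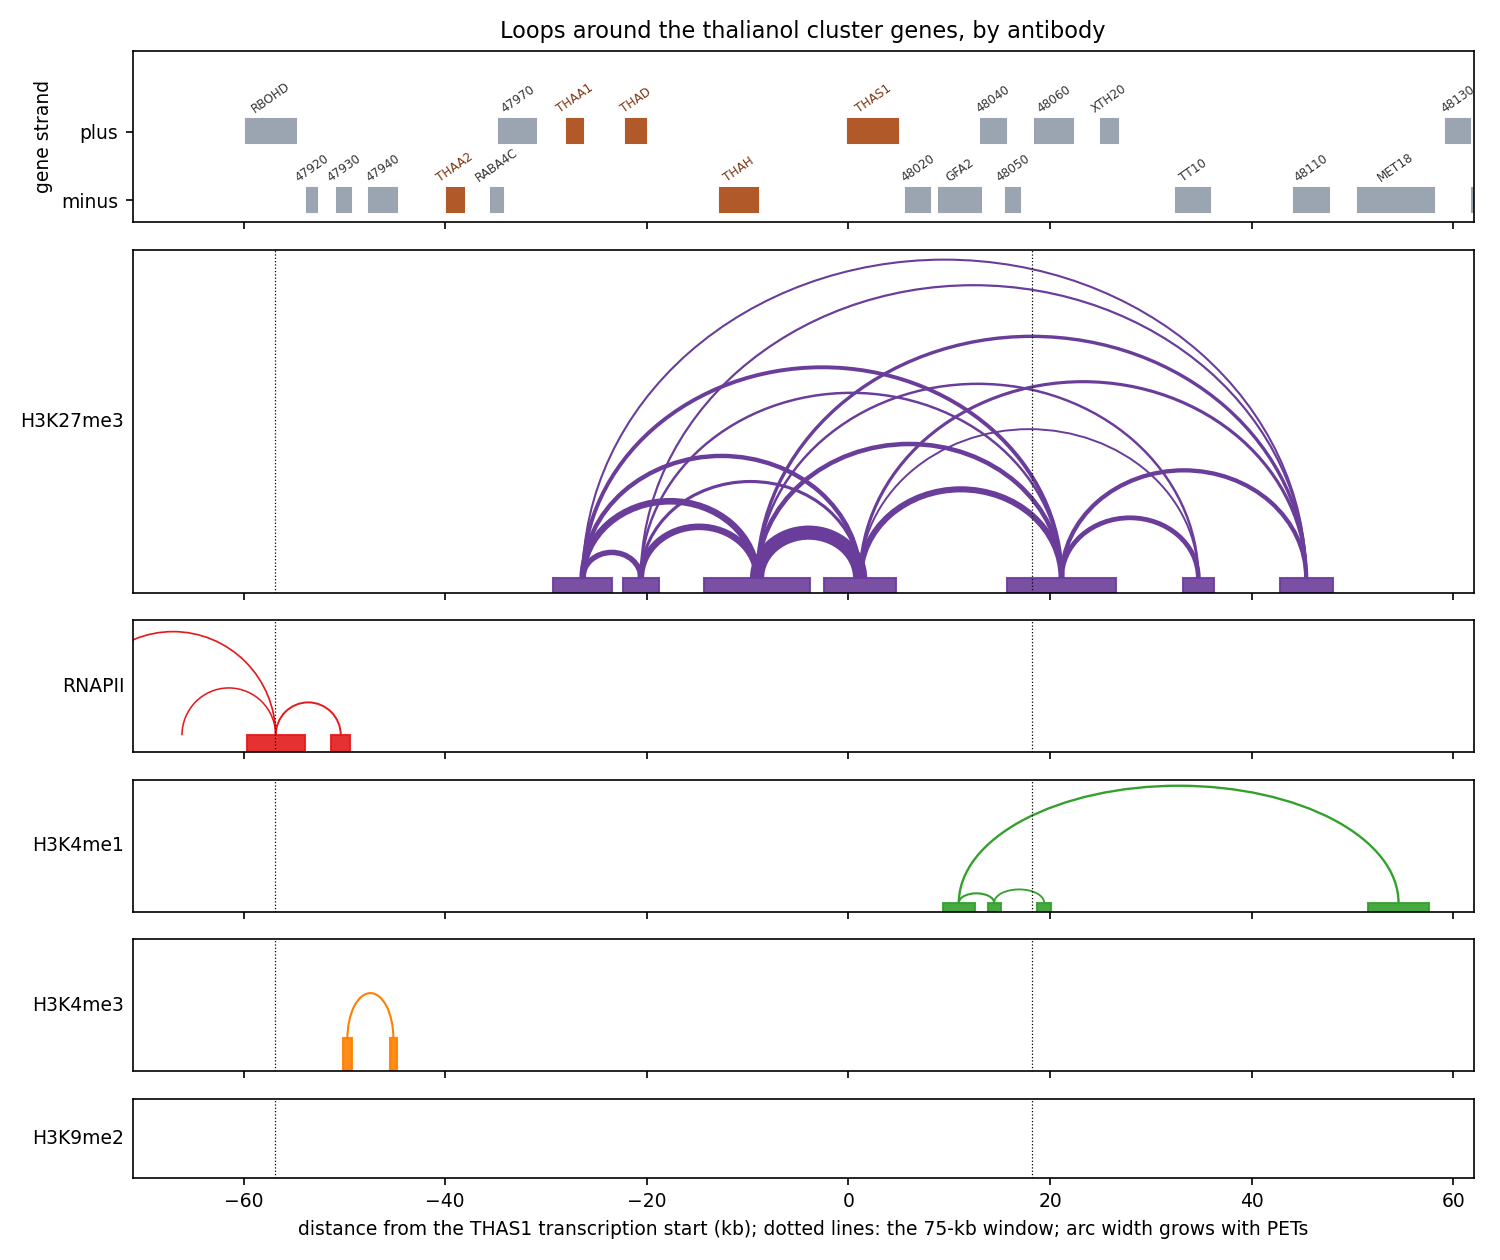
Genes, anchors and loops around the thalianol cluster by distance from the THAS1 transcription start (kb). Brown genes are the cluster genes, boxes are anchors, arcs are loops of the window up to 100 kb (1 H3K4me1 loop is not drawn) with a width that grows with their PETs, and dotted lines are the window's ends; left partners of RBOHD are drawn without boxes and 1 arc runs off the left edge. The H3K27me3 arcs tie the anchors from THAA1 to AT5G48110 together, RNAPII and H3K4me3 arcs stay left of THAA2, and H3K4me1 arcs stay right of THAS1.

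By antibody, nearly all of the window's loops came from H3K27me3 and RNAPII. H3K27me3 gave 29 of 6310 loops (0.46%, exact 95% interval 0.308% to 0.659%) with 658 PETs, and RNAPII gave 49 of 13633 (0.359%, 0.266% to 0.475%) with 526 PETs. H3K4me1 gave 4 of 13355 loops with 31 PETs and H3K4me3 gave 1 of 14465 with 8 PETs. H3K9me2 gave 0 of 11508, which allows a share of up to 0.0261%. The lists differed in depth and in the lowest PET count they kept, which was 5 within and 7 between chromosomes for H3K27me3, 4 and 6 for RNAPII, 6 and 8 for H3K4me1 and H3K4me3, and 5 and 7 for H3K9me2, so shares of different lists are set side by side without a test. Median tags per anchor, the sequenced ends that fell in it, ran from 444 for H3K9me2 to 4211 for H3K4me3. Within the H3K27me3 list, 51 of 1585 tiles of 75 kb (3.22%) had at least as many loops as the window and 23 (1.45%) at least as many PETs, and the median tile had 3 loops. For RNAPII, 122 tiles (7.7%) had at least as many loops, for H3K4me1 1051 (66.3%) and for H3K4me3 1325 (83.6%). No H3K9me2 loop touched 1228 of the tiles (77.5%), so the window's lack of such loops was the common state.

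H3K27me3 anchors formed an unbroken series of contacts from THAA1 to XTH20. The THAA1 anchor (19427534 to 19433431, 3385 tags) held THAA1 and AT5G07035. The THAD anchor (19434456 to 19438036) had 1947 tags. The THAH anchor (19442521 to 19453029, 4904 tags) was 10509 bp wide, wider than 95.3% of the list's anchors, and 54.7% of it was intergenic. The THAS1 anchor (19454399 to 19461587) had 4836 tags. The fifth anchor (19472574 to 19483380, 5459 tags) had only 2427 of its 10807 bp in the window. It covered AT5G48050, annotated as a copia-like retrotransposon protein, AT5G48060, a C2-domain protein, and XTH20, a xyloglucan-modifying enzyme of the cell wall, and is called the XTH20 anchor here. Tags per kb in these 5 anchors ran from 467 (THAH) to 673 (THAS1), against a median of 512 over the list. In total tags all 5 were above the list's median of 1640. The share of anchors with fewer tags ran from 55.4% (THAD) to 89.1% (XTH20 anchor). Beyond the window, the series went on through TT10, a laccase that oxidises flavonoids in the seed coat (1099 tags), and AT5G48110, annotated as a terpenoid cyclase or prenyltransferase superfamily protein (3356 tags). All 7 anchors lay within 77.3 kb and covered 60% of it.

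The strongest contact joined THAH to THAS1, the hydroxylase and the cyclase that makes its substrate. It had 101 PETs over 10.2 kb. Of 671 H3K27me3 loops with a span within 25% of it, 98.5% had fewer PETs (97.3% to 99.3%), 9 had as many or more, and the median was 11. The 10.2 kb is the distance between midpoints, and the facing edges of these wide anchors lay only 1.37 kb apart. Loops of like span were not matched for edge gap or anchor width. THAA1 to THAH had 43 PETs over 17.3 kb and THAD to THAH had 43 over 11.5 kb. THAA1 to THAD, the closest pair at 5.76 kb, had 34, with 1.02 kb between their edges. THAA1 to THAS1 had 26 over 27.5 kb and THAD to THAS1 had 16 over 21.7 kb. In raw PETs, THAH had more with each of the other cluster anchors than those anchors had with one another. THAH also had the most tags of the 4 cluster anchors and THAD the fewest, and the part of tags in these PET counts was not tested. Per 1000 tags (PETs over the geometric mean of both anchors' tags), the order changed in part: THAH to THAS1 had the most with 20.7, followed by THAD to THAH with 13.9, THAA1 to THAD with 13.2, THAA1 to THAH with 10.6, THAA1 to THAS1 with 6.43 and THAD to THAS1 with 5.21.

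**Figure D2:**
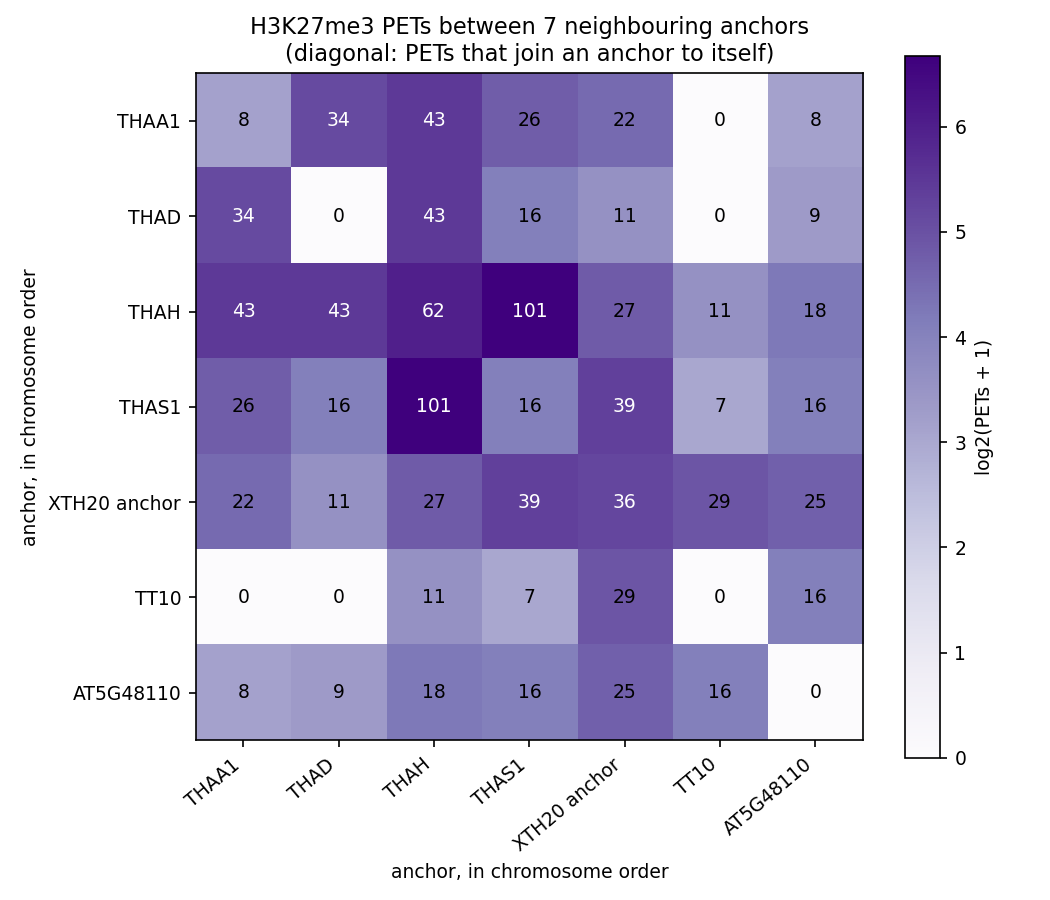
H3K27me3 PETs between 7 neighbouring anchors in chromosome order, with PETs that join an anchor to itself on the diagonal; colour is log2(PETs + 1) and the printed number is the PET count. The darkest cell off the diagonal is THAH to THAS1 with 101 PETs, and a 0 means that no loop was in the list.

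The XTH20 anchor was joined to every cluster anchor. It had 39 PETs with THAS1 over 20 kb, 27 with THAH over 30.2 kb, 22 with THAA1 over 47.5 kb and 11 with THAD over 41.7 kb. The 3 genes between THAS1 and this anchor were passed over: AT5G48020, an oxygenase family gene, met no anchor of any list, and GFA2 and AT5G48040 met H3K4me1 anchors only. The XTH20 anchor continued outward with 29 PETs to TT10 over 13.6 kb and 25 PETs to AT5G48110 over 24.3 kb. AT5G48110 was joined to all 5 anchors of the window, with 18 PETs to THAH over 54.5 kb, 16 to THAS1 over 44.2 kb, 9 to THAD over 66 kb and 8 to THAA1 over 71.8 kb in addition to the XTH20 contact. TT10 was joined to THAH with 11 PETs over 43.8 kb and to THAS1 with 7 over 33.5 kb. No loop joined TT10 to THAA1 (61.1 kb) or to THAD (55.3 kb). A pair without a loop had fewer than 5 PETs or an FDR of 0.05 or more, and contact below that limit was not detectable at this depth.

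Set against loops of like span, the 10 loops between anchors of the window ranked from 67.6% (THAD to XTH20) to 98.5% (THAH to THAS1) by the share of loops with fewer PETs. The lowest rank of the loops up to 100 kb was that of THAS1 to TT10, where 32.1% had fewer. These ranks compare loops that had all passed the filter of the list. The loops were matched by midpoint span only, not by edge gap, anchor width or tags. Neighbouring anchors among the 7 had a median of 36.5 PETs (16 to 101, 6 pairs), pairs with 1 anchor between them a median of 25 (7 to 43, 5 pairs), and pairs with 2 between them a median of 13.5 (11 to 26, 4 pairs). Pairs with 3 between them had a median of 18 (0 to 22, 2 of 3 joined), the 2 pairs with 4 between them had 0 and 9, and THAA1 to AT5G48110, with 5 between them, had 8.

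**Figure D3:**
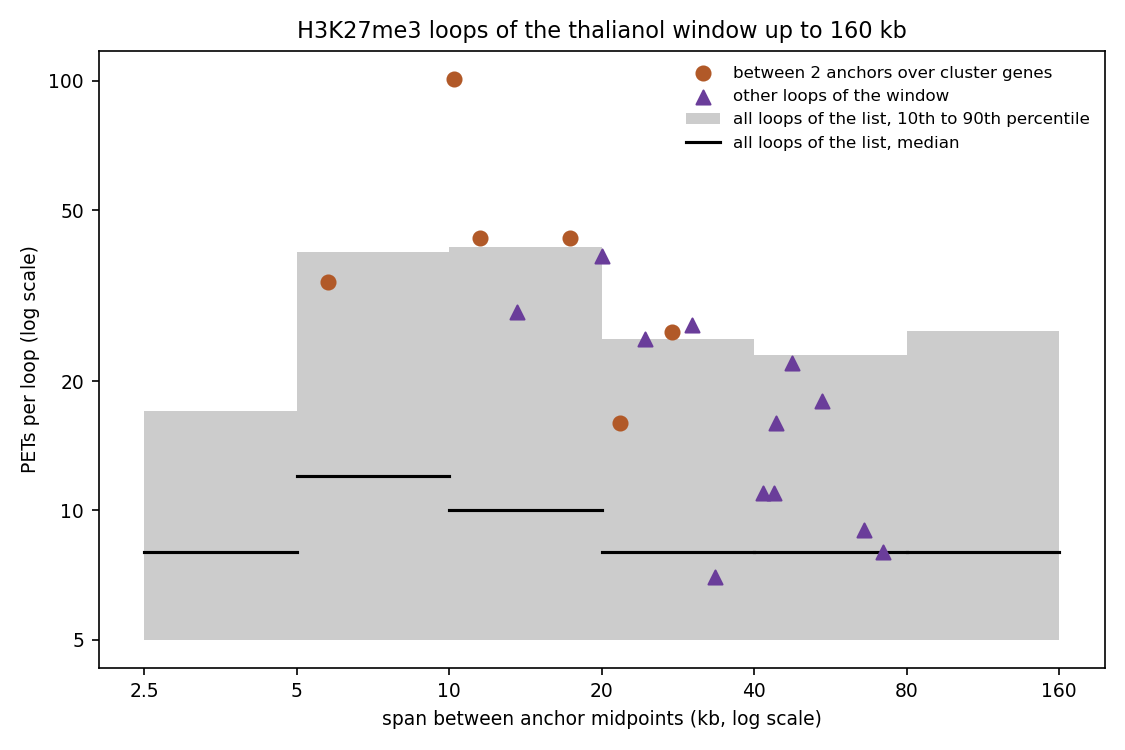
PETs against span for the H3K27me3 loops of the window up to 160 kb, both on log scales; circles join 2 anchors over cluster genes and triangles are the other loops of the window. Grey bands run from the 10th to the 90th percentile of all H3K27me3 loops in each span bin and black lines are medians. THAH to THAS1, at 101 PETs, stands farthest above its band. THAA1 to THAH, THAD to THAH, THAA1 to THAS1 and THAH to XTH20 lie just above theirs. THAS1 to TT10, at 7 PETs, is the one point below a median line.

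All 10 pairs of the window's 5 anchors were joined by a loop (exact 95% interval 69.2% to 100%), and so were all 6 pairs of the 4 anchors over cluster genes. Pairs that share an anchor are not separate trials, which the intervals for pairs assume, so these intervals are a description only. Among all pairs of H3K27me3 anchors at most 75 kb apart, 32.6% were joined (2927 of 8976). The share of joined pairs in the list declined with distance: 72.1% up to 10 kb, 58.7% from 10 to 20 kb, 27.9% from 20 to 40 kb and 9.76% from 40 to 75 kb. With TT10 and AT5G48110, 19 of 21 pairs were joined (90.5%, 69.6% to 98.8%), among them 7 of 9 pairs from 40 to 75 kb apart. TT10 and AT5G48110 were taken in because they are partners, so their share is partly fixed by that choice. The 5 window anchors were chosen by position, but the window was set with earlier results known, the XTH20 anchor among them. Only 2427 of the 10807 bp of that anchor lay in the window, so its pairs are also partly fixed by the choice. With loops of at least 10 PETs only, the counts were 10 of 10 and 16 of 21, against 16.2% of all pairs, also not matched for distance. Runs of successive anchors in which each was joined to each other one reached 5 anchors here, from THAA1 to XTH20 (55.8 kb) and again from THAH to AT5G48110 (62.3 kb). Of 3171 H3K27me3 anchors, 13 (0.41%) started a run of 5 or more, and the longest run in the list had 7.

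**Figure D4:**
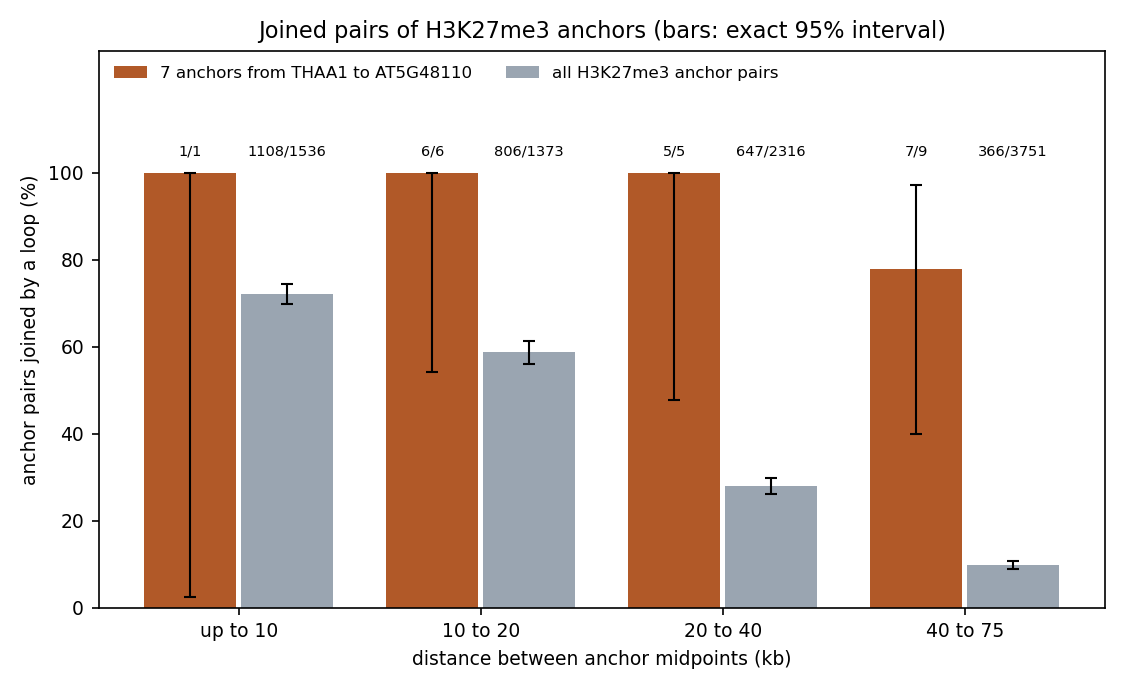
Percent of H3K27me3 anchor pairs joined by a loop, by distance between anchor midpoints (kb), for the 7 anchors from THAA1 to AT5G48110 (left bar of each pair) and for all pairs of the list; lines are exact 95% intervals and fractions give joined over all pairs. The share of all pairs was 9.76% at 40 to 75 kb, where 7 of 9 pairs of the 7 anchors were joined. TT10 and AT5G48110 were taken in as partners, so the share of the 7 anchors is partly fixed by that choice. Of window anchors alone, 2 of 2 pairs in this class were joined. Pairs that share an anchor are not separate trials, which the intervals assume.

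Loops that joined an anchor to itself were found for 4 of the 5 window anchors. THAH had 62 such PETs, and 65.3% of 239 self-joined anchors of like width (within 25%) had fewer (58.9% to 71.3%). The XTH20 anchor had 36, with 27.8% of 227 anchors of like width below it (22% to 34.1%), THAS1 had 16 and THAA1 had 8. THAD, the narrowest of the 5, had no such loop. Among self-joined anchors of like width, 50.7% had fewer PETs than THAS1 and 28.1% had fewer than THAA1. In raw counts, the contact between THAH and THAS1 had more PETs than either anchor had with itself. Self PETs varied with anchor width, with a median of 11 at the width of THAA1 and 48 at that of THAH. They are therefore not a like measure to PETs between anchors.

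Most PETs of the window's H3K27me3 contacts were in loops within 100 kb. Of 25 loops between different anchors, 18 were within 100 kb and carried 485 PETs (90.5% of PETs), while within the whole list 69.4% of PETs were in loops of that reach. The other 7 loops carried 51 PETs, 5 to 10 each. For the 3 of them on chromosome 5, list loops of like span had a median of 6 PETs. Fewer PETs were found in 0% of like-span loops for AT5G25950, 0% for LAC16 and 72.6% for the AT5G52130 anchor. The 7 loops made up 28% of the window's loops between different anchors (12.1% to 49.4%), against 45.4% of the list's, which lies inside that interval. Their FDR ran from 0.00618 to 0.0476, whereas no local loop had an FDR above 0.000842. THAS1 had 4 of the 7: 10 PETs with the anchor of AT3G55513 on chromosome 3, which also holds the microRNA gene MIR172d; 9 with an anchor over 5 protein-coding genes from AT5G52130 to AT5G52160, 1.73 Mb away; 8 with WRKY6, a transcription factor gene on chromosome 1; and 7 with an anchor on chromosome 4 that holds DAZ3, AT4G35690 and AT4G35710. THAA1 had 7 PETs with an anchor on chromosome 1 that holds YSL7, a yellow stripe-like transporter gene, UCL1 and AT1G65735, and 5 with the laccase gene LAC16, 4.36 Mb away. THAD had 5 PETs with AT5G25950, 10.4 Mb away. THAH, the anchor with the most local PETs, had no loop beyond the 7 neighbouring anchors, and neither had the XTH20 anchor or TT10. Of the 21 pairs of these 7 distant partners, 1 was joined (AT3G55513 to LAC16, 8 PETs).

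The H3K27me3 anchors outside the window whose partners were most like those of the 4 cluster anchors were their own neighbours. Likeness was the Jaccard index of partner sets, the shared partners over all partners of both, with 14 partners for the cluster anchors as a group. These 14 included the 4 cluster anchors themselves, which were joined to one another. AT5G48110 had an index of 0.375 (6 shared partners) and TT10 0.286 (4 shared). All of these shared partners were among the group of 7, so both values largely restate the loops given above. The next were LAC16 and the anchor of AT1G65760 and AMR1 on chromosome 1, both at 0.118 with 2 shared partners, and AT3G55513 at 0.08, also with 2. Of 8 loops at AT5G48110, 2 left the group of 7: 5 PETs with an anchor that holds CDR1, 6.91 Mb away, and 8 with AT3G47020 and AT3G47030 on chromosome 3.

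Other listed triterpene genes lay at H3K27me3 anchors too, but no loop joined them to the thalianol cluster. Of 13 oxidosqualene cyclase genes, THAS1 included, 12 lay at an H3K27me3 anchor, against 14.8% of all protein-coding genes, and the exception was CAS1, the cyclase of sterol synthesis that all tissues need, which met an H3K4me1 anchor. None of the 13 met an RNAPII, H3K4me3 or H3K9me2 anchor, where the share of all genes was 24%, 39.4% and 0.998%, in that order. An H3K4me1 anchor was met by 4 of the 13 (CAS1, LUP2, BAS and CAMS1), close to the 28.4% of all genes. The marneral cluster, on the same chromosome, had all 3 of its genes at H3K27me3 anchors and all 3 anchor pairs joined, with 10 to 360 PETs. The arabidiol and baruol cluster on chromosome 4 had 7 of 7 genes at 2 anchors, which 485 PETs joined. In the tirucalladienol cluster 2 of 3 genes lay at anchors and 5 PETs joined them. The 101 PETs of the strongest thalianol pair lay between the values of these clusters. These are raw counts of anchor pairs that were not matched for span, width or tags. The oxidoreductase genes THAR1 (AT3G29250) and THAR2 (AT1G66800), which act in the thalianol pathway from chromosomes 3 and 1, both lay at H3K27me3 anchors; THAR1 had 1 loop of 7 PETs, and THAR2 had 18 loops with 228 PETs and 249 PETs with itself. No loop joined a thalianol cluster anchor to the anchor of either gene, of another of the 13 oxidosqualene cyclases or of another listed triterpene cluster. The neighbour AT5G48110, annotated in the terpenoid cyclase superfamily and joined to the cluster anchors, is not among the 13. Of 24 CYP705A genes, the P450 family of THAD, 6 lay at an H3K27me3 anchor, against 14.8% of all protein-coding genes, and 11 at an H3K4me1 anchor, against 28.4%. Neighbouring genes shared anchors, with the 6 at 4 H3K27me3 anchors and several of the 11 at the same H3K4me1 anchor. These genes are therefore not separate counts. All 6 are genes of the thalianol, marneral or arabidiol and baruol clusters already counted above: THAD, CYP705A12, CYP705A1, CYP705A2, CYP705A3 and CYP705A4. Of 3 CYP708A genes, the family of THAH, 2 lay at an H3K27me3 anchor, THAH itself and CYP708A3.

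Active marks bordered the cluster on both sides. On the left, all 49 RNAPII loops of the window belonged to a single anchor (19397159 to 19402891) over RBOHD, an NADPH oxidase that makes reactive oxygen species outside the cell in defence and wounding. Only 2892 bp of it lay in the window, and only 1 of its loops ended at another anchor in the window, that of the ribosomal protein gene AT5G47930 (7 PETs over 6.46 kb). The RBOHD anchor had 17506 tags, rank 71 of 4520 RNAPII anchors, and rank 37 by loops, against a list median of 2 loops. Of its loops, 22 stayed on chromosome 5 and 27 (55.1%, 40.2% to 69.3%) went to other chromosomes, against 42.9% of the list's loops between different anchors, which lies inside that interval. Of the 22, 3 spanned up to 100 kb, 3 spanned 100 kb to 1 Mb and 16 spanned more. The most PETs were with AT1G56660 and AT1G56670 (38), with an anchor that holds the arabinogalactan protein gene AGP1 (34) and with OPR3, an enzyme of jasmonate synthesis (24). Next came TCH2, a calmodulin-like protein (23), an anchor that holds ROS3 (19), the dehydrin gene COR47 (19), the aquaporin gene PIP2E (17) and an anchor that holds NMT1 (17). CYP707A3, which breaks down abscisic acid, the GTPase gene ROP2 and the galactosidase gene BGAL1 had 15 each. Several of these anchors hold further genes.

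PETs of the RBOHD anchor followed the tags of the partner closely. Over its 49 loops, Spearman's rho between PETs and partner tags was 0.97 and Pearson's r of the log2 values was 0.89, as a description, since all 49 points share the RBOHD anchor and passed a filter that itself reads tags. The partner with most PETs, AT1G56660 with AT1G56670, had 27432 tags, and the partner with the fewest tags, AT5G47890 at 9.29 kb, had 35 tags and 4 PETs. The FDR was below 0.001 for 2 of the 49 loops and 0.01 or more for 42. None of the 49 ended at a cluster gene.

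**Figure D5:**
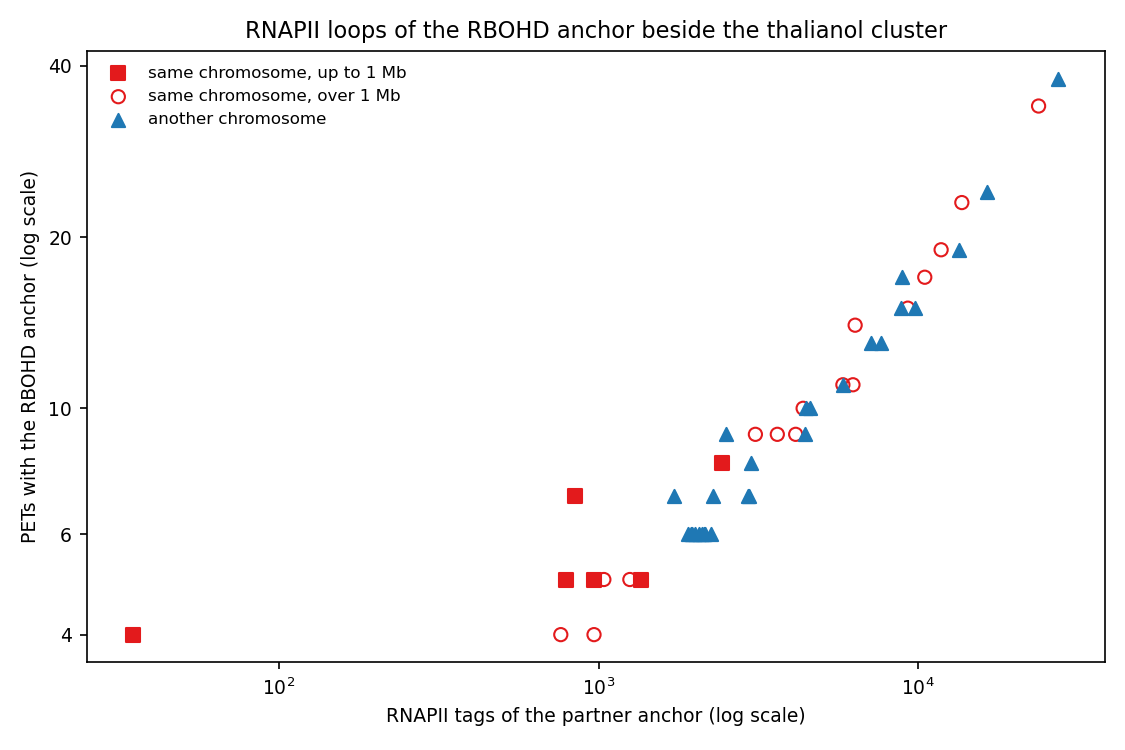
PETs of each RNAPII loop of the RBOHD anchor against the RNAPII tags of its partner anchor, both on log scales; filled squares are partners on chromosome 5 up to 1 Mb away, open circles partners farther on chromosome 5, and triangles partners on other chromosomes. PETs climb with tags up to 38 PETs at 27432 tags.

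The single H3K4me3 loop joined AT5G47930 to AT5G47940, a neighbour annotated as a 40S ribosomal protein gene, with 8 PETs over 4.55 kb. RBOHD also met an H3K4me3 anchor, with 4 loops and 30 PETs, which ended left of the window. On the right, the H3K4me1 loops started at GFA2, a mitochondrial chaperone needed in the female gametophyte, or at AT5G48040, a ubiquitin hydrolase family gene. GFA2 had 10 PETs with MET18, which serves iron-sulphur cluster assembly, over 43.6 kb and 8 with AT5G48040 over 3.5 kb. AT5G48040 had 6 with AT5G48060 over 4.97 kb. The GFA2 loop to MET18 passed over the XTH20 anchor of the H3K27me3 list, and the H3K4me1 anchor of AT5G48060 (650 tags) lay inside it. H3K4me1 and H3K27me3 anchors were thus interleaved right of THAS1, and in a mixed tissue both marks on 1 stretch cannot be told apart from marks in different cells.

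Loops that crossed the cluster were counted without a comparison to other stretches. The stretch from the start of the THAA1 anchor to the end of the THAS1 anchor was 34.1 kb long. Among loops of 1 Mb or less that started on one side and ended on the other, there were 0 H3K27me3, 4 RNAPII, 2 H3K4me1, 0 H3K4me3 and 0 H3K9me2 loops. Of the 4 RNAPII loops, 3 came from RBOHD, with OBE2 129 kb away and with anchors that hold AtSPO22 and HCT farther on. The shorter H3K4me1 loop joined FRA1 to AtSPO22 over 244 kb. Loops of any span that passed over it numbered 102 for H3K27me3, 399 for RNAPII, 316 for H3K4me1, 436 for H3K4me3 and 0 for H3K9me2.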

How the data were processed

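ChIA-PET was done on Col-0 shoots with antibodies against 5 targets, 2 labelled replicates each. Chromatin was cross-linked with EGS and formaldehyde and sonicated, and ends were joined with a bridge linker. The authors ran ChIA-PET Tool V3 on TAIR10, combined the replicates, called clusters between given anchors (ChIP-seq peaks) and filtered them at an FDR of 0.05 and a PET minimum set for each list. The deposited PET and tag values are raw counts without normalization. The deposited p-values used here are the authors' FDR values. They served to filter loops within a list and are given as a description for the distant, local and RBOHD loops. For the aligner's settings, nothing is given in the sources used here.

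The members, the window and the gene lists were chosen with earlier results of these data known. Genes named were the cluster genes, genes at anchors of the window, genes at partners within 100 kb, genes at the 10 strongest distant partners of a list (all if fewer), the 5 anchors most like the cluster in partners, and the fixed gene lists. The TATA letters were added after seeing the files. Genes came from the RefSeq TAIR10.1 annotation, whose nuclear chromosomes have the lengths of TAIR10. A gene lay at an anchor when they shared at least 1 bp. Span was measured between anchor midpoints. Intervals are exact Clopper-Pearson 95% intervals, and a count of 0 was given the limit of 3 counts. Mitochondrial anchors, found in 5 loops, were not used. Alternatives tried were a common PET minimum, an FDR below 0.001, other windows, other overlap rules, wider span classes, PETs per tag and shifted tiles. Functions were tested on simulated data. Python 3.11.15, pandas 2.3.3, numpy 2.4.6, scipy 1.17.1 and matplotlib 3.10.9 were used. The partner of 1 H3K4me1 loop is not reported here.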

Additional observations from a re-analysis of the deposited data

How the results depend on the processing

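Of 80 values recomputed under the alternatives, 55 stayed within 1.5 times of the given count or within the interval or spread of the given value. Part of the 55 could not move, so this count overstates stability. Examples are stricter filters on a count of 0, as for H3K9me2, and self loops left out where the window had none. The common PET minimum was also already that of the H3K4me1 and H3K4me3 lists. With at least 10 PETs, the window's loops numbered 19 for H3K27me3, 20 for RNAPII, 1 for H3K4me1 and 0 for H3K4me3, and partner anchors outside it 3, 20 and 1 for the first 3 lists. With 6 PETs within and 8 between chromosomes there were 5 H3K27me3 partners, 28 RNAPII loops and 27 RNAPII partners. With an FDR below 0.001, 2 H3K27me3 partners (TT10 and AT5G48110), 2 RNAPII loops and 1 RNAPII partner were left. Only in the stretch from THAA2 to THAS1, RNAPII, H3K4me1 and H3K4me3 had 0 loops each. With the window 25 kb wider on each side, H3K4me1 and H3K4me3 had 9 loops each. Without the RBOHD anchor, which was left out after seeing the data, RNAPII had 0. Pairs of H3K27me3 anchors joined by at least 10 PETs made up 16.2% of all pairs in place of 32.6%, while all 10 pairs of the window stayed joined. The count of 4 cluster genes at an H3K27me3 anchor was the same under both other overlap rules. Of 20 recomputed ranks of single loops between window anchors, 15 lay within the interval of the given rank. No paired analysis was possible because the lists pool the replicates. Depth limits the lists through their PET minimum, so contacts under it were not detectable.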
